A study of Homo sapiens with 6 samples.

Results

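The 93 nuclear genes described here carry the names of subunits of the 5 protein complexes of oxidative phosphorylation. They were chosen by gene name on the array: names that start with NDUFA, NDUFB, NDUFC, NDUFS, NDUFV, UQCR, COX4, COX5, COX6, COX7, COX8 or ATP5, and SDHA, SDHB, SDHC and SDHD, without pseudogene and antisense names. They stand for 93 of the 43317 gene names on the array and for 126 of its 58201 probes. By complex these were 37 genes of complex I, 7 complex I assembly factors (the NDUFAF genes, which the name rule brings in), 4 of complex II, 8 of complex III, 19 of complex IV and 16 of complex V. The remaining 2, ATP5S and ATP5SL (now DMAC2L and DMAC2), are not subunits of the enzyme whose name they carried. Testing was limited to probes that 3 or more of the 6 arrays measured well above background in Cy3 or Cy5, which held for 120 of the 126 probes and 90 of the 93 genes. The 3 genes that did not pass were COX7A1, COX7B2 and COX8C, which are tissue-restricted forms of complex IV subunits.

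The line was 22RV1, a long-established prostate cancer cell line of human origin labelled as SPINK1 positive, made stably by lentiviral vectors to overexpress miR-338-5p (pLemiR-338-5p) or miR-421 (pLemiR-421), or to carry a red fluorescent protein control vector (pLemiR-RFP), and all were grown with puromycin. Each of 6 arrays held control RNA in the dye Cy3 and RNA of 1 miRNA line in Cy5, with no dye swap: 3 arrays for miR-338-5p (replicates 1, 2 and 3) and 3 for miR-421 (a sample named pool, and replicates 1 and 2). In the titles the numbered samples, but not the pool, carry the letter C, which the labels do not explain. The labels also do not say whether replicates were separate cultures, what went into the pool or whether 1 control RNA served every array. The p-values therefore measure the spread between these samples, which may be technical, and the comparisons of both lines with control may share their control. A dye bias of a probe would enter both comparisons with control as well. Values below are log2 ratios of the miRNA line over control, and "past the threshold" means an adjusted p under 0.05 in limma's test over all tested probes.

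In oxidative phosphorylation, electrons from NADH enter the inner mitochondrial membrane at complex I and those from succinate at complex II, pass through complex III and cytochrome c to complex IV, and reduce oxygen there. Complexes I, III and IV pump protons, and complex V, the ATP synthase, lets them flow back to make ATP. Most subunits are encoded in the nucleus and imported, a few are encoded in mitochondrial DNA, and many of the small subunits surround a catalytic core without carrying a reaction themselves. A miRNA guides a protein complex to messenger RNAs that pair with its seed, bases 2 to 8, and lowers their stability or translation.

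The mature sequences are shown, 5' to 3', with the seed in capitals, because both lines differ from control by them. They are RefSeq sequences of the GRCh38.p14 build, at chr17:81125923-81125944 and chrX:74218392-74218414, both on the minus strand.
miR-338-5p: aACAAUAUccuggugcugagug
miR-421: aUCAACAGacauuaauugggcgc
The seeds differ, so no site of 7 bases is shared. The DNA letters that pair with the seed are ATATTGT for miR-338-5p and CTGTTGA for miR-421. Of the 120 tested probes, 1 held the first (0.833%, against 0.478% of all 58201 probe sequences) and 1 held the second (0.833%, against 0.558%). The first is a probe of NDUFB9, an accessory subunit of complex I, which had a mean of 0.42 under miR-338-5p (limma adjusted p = 0.0799). The second is the probe of ATP5J, a small subunit of the stalk of complex V, shown as bases 21 to 50 of the probe with the site in capitals.
ATP5J: atctggaggacCTGTTGAtgctagttcaga
ATP5J did not pass the threshold in either line (a log2 ratio of -0.47 ± 0.31 for miR-338-5p, limma adjusted p = 0.0823, and of -0.43 ± 0.21 for miR-421, adjusted p = 0.0654; here and below ± gives the SD over 3 arrays unless n is given). A probe covers 60 bases of a transcript, so these counts say nothing of sites elsewhere in it.

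Cy3 was well above background on 44.3% to 47.9% of gene spots and Cy5 on 41.9% to 48.3%, and 0 gene spots were saturated on any array. All 10 prostate or 22RV1 markers examined, KLK3 among them, were well above background in both dyes on all 6 arrays. Of markers of other cells on the array, 2 of 2 of blood cells, 2 of 4 of fibroblasts, 2 of 3 of endothelium and 1 of 2 of smooth muscle were well above background in Cy3 on all 6, while COL1A2, COL3A1, PECAM1 and MYH11 were so on 0. Of the 90 tested genes, 84 lay in the brightest 25% of all genes by mean log2 intensity. Among member probes printed on 10 spots of an array, the SD over spots was 0.0257 to 0.0959 (30 values of 5 probes, median 0.0477).

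Under miR-338-5p, oxidative phosphorylation genes past the threshold were mostly lower: 11 of the 90 fell (12.2%), 3 rose (3.33%) and 76 did not pass. Over all genes tested, with 1 probe per gene, 5.23% were lower and 3.96% higher. In the brightest 25% of genes, a comparison added after the values were seen, 6.75% were lower and 6.06% higher. The median over the 90 genes was -0.09, against -0.00 over all genes, and 57 of 90 had a mean below 0. Counted as probes, 22 of 120 passed (6 higher, 16 lower), against 8.95% of all tested probes.

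Under miR-421, 19 of the 90 genes fell (21.1%) and 9 rose (10.0% of the 90), and 62 did not pass. Over all genes tested, 12.6% were lower and 10.0% higher, and in the brightest 25% of genes 18.0% were lower and 17.2% higher. Among members the share that fell was thus close to that of equally bright genes. The median was -0.11, against 0.01 over all genes, and 53 of 90 means lay below 0. As probes, 32 of 120 passed (9 higher, 23 lower), against 21.6% of all tested probes.

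The split of direction under miR-421 depended on the scaling. With each array centred on its median in place of loess, 35 probes passed, of which 22 were higher and 13 lower, and the median of the 90 genes was 0.01. The ratio of the image software gave 1 higher and 15 lower probes. The authors' deposited table gave 13 genes past the threshold in limma (2 higher, 11 lower). Plain background subtraction gave 3 higher and 14 lower probes. Under miR-338-5p the split was 6 higher and 16 lower in the main setting, 2 and 8 with median centring, 1 and 1 with the ratio of the image software, 0 and 1 with genes of the authors' deposited table and 2 and 2 with plain subtraction. Whether members passed more often than other features turned with the setting as well. With plain subtraction, 3.33% of member probes passed under miR-338-5p against 5.76% of all probes, and 14.2% against 20.5% under miR-421. By the ratio of the image software the shares were 1.67% against 3.98% and 13.3% against 19.4%, and in limma on the authors' deposited table they were 1.11% of members against 4.54% of genes and 14.4% against 19.7%. In these 3 settings members passed less often than all features, while in the main setting and with median centring (8.33% against 4.67%, and 29.2% against 14.1%) they passed more often. Counts also rested on single arrays: in place of 22 for miR-338-5p, 3, 1 and 5 probes passed without its replicates 1, 2 and 3. As all arrays share the estimate of the spread, leaving out miR-421 arrays changed this count too. It was 11 without the miR-421 pool, 29 without miR-421 replicate 1 and 6 without miR-421 replicate 2. In place of 32 for miR-421, 5 probes passed without its replicate 2 and 18 without the pool.

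In the test of the difference between the lines, 0 of 120 member probes passed, against 0.0473% of all probes, and 24 (20%) had an unadjusted p under 0.05, against 13.6% of all probes. With a trended and robust variance in limma 1 passed, NDUFA4L2. No statement that a gene changed in 1 line and not in the other can therefore be drawn from the threshold alone.

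**Figure D1:**
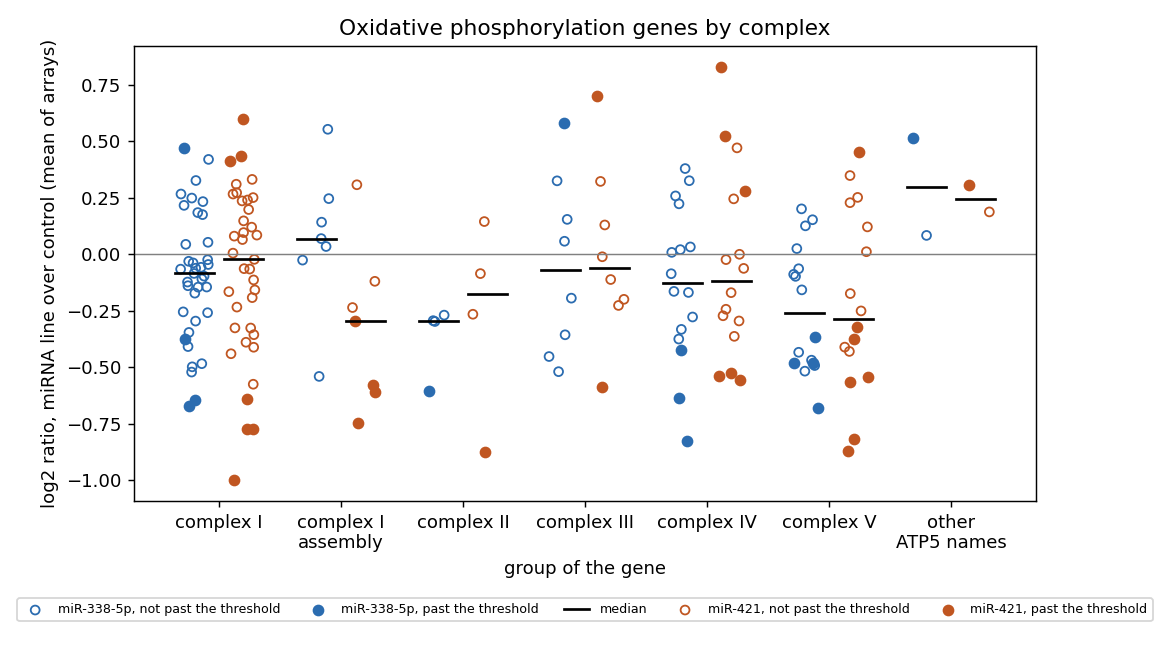
Each point is 1 gene, placed by complex (x axis) and by its mean log2 ratio over control (y axis), blue for miR-338-5p and orange for miR-421; filled points passed the threshold and black bars are medians. Complex V has its medians at -0.26 and -0.29, with 4 and 6 filled points below 0, while complex I centres at -0.08 and -0.02.

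Complex I, the NADH dehydrogenase and the largest of the 5, had shares past the threshold near those of all genes: 10.8% of its 37 genes passed for miR-338-5p, against 9.19%, and 18.9% for miR-421, against 22.7%. Under miR-338-5p 1 of 37 rose and 3 fell (median -0.08), and under miR-421 3 rose and 4 fell (median -0.02). Of the core subunits, which bind the flavin and iron-sulphur clusters or the quinone, 6 (NDUFS1, NDUFS3, NDUFS7, NDUFS8, NDUFV1 and NDUFV2) had means from -0.38 to 0.19 under miR-338-5p and from -0.23 to 0.60 under miR-421.

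Among the core, NDUFV1, the flavin-bearing subunit that takes electrons from NADH, rose under miR-421. The pool read 0.49, and replicates 1 and 2 read 0.68 and 0.63, which average to 0.60 ± 0.10 (adjusted p = 0.00734 in limma), or 1.51-fold. On the miR-338-5p arrays it was 0.22, 0.03 and 0.31, a mean of 0.19 that did not pass (adjusted p = 0.173). The arrays of the lines did not overlap, but the difference did not pass (adjusted p = 0.206). NDUFS3, another core subunit, fell under miR-338-5p, with values of -0.61, -0.28 and -0.23 (adjusted p = 0.0462), and had -0.21, -0.25 and -0.24 under miR-421 (adjusted p = 0.0942).

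The other complex I falls were of accessory subunits. NDUFAB1, the mitochondrial acyl carrier protein, which complex I holds and which also serves fatty acid synthesis, had -0.79, -0.72 and -0.50 under miR-338-5p (adjusted p = 0.0150). Under miR-421 it had -0.77 and -0.78 on replicates 1 and 2 and no value on the pool, where its spot was marked an outlier (n = 2, adjusted p = 0.00902). NDUFS5, a small subunit on the intermembrane side, had -0.93, -0.52 and -0.48 (adjusted p = 0.0225) and, under miR-421, -0.65, -0.87 and -0.80 (adjusted p = 0.00840). Both genes were below 0 on every array that measured them.

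NDUFB3, a small membrane-arm subunit, had the lowest mean of all 90 genes under miR-421. The pool read -0.91, and replicates 1 and 2 read -0.61 and -1.48 (SD 0.44, adjusted p = 0.0170), a mean of 50% of control. Under miR-338-5p it was -0.83, -0.39 and -0.34, which did not pass (adjusted p = 0.129). The groups overlapped, since replicate 1 of miR-338-5p was lower than replicate 1 of miR-421. NDUFA12 fell under miR-421 too (-0.79, -0.32 and -0.82, adjusted p = 0.0143), though its second probe had -0.36 and did not pass (adjusted p = 0.0939).

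Accessory subunits that rose were NDUFB2 under miR-338-5p (0.52, 0.37 and 0.53, adjusted p = 0.0353) and NDUFV3 and NDUFA11 under miR-421. NDUFV3, a small partner of the flavin subunit, had 0.25, 0.55 and 0.51 (adjusted p = 0.0169), and its second, dimmer probe rose under miR-338-5p instead (mean 0.54, adjusted p = 0.0327). NDUFA11, a membrane subunit, had 0.43, 0.58 and 0.23 (adjusted p = 0.0281). All arrays of both lines were above 0 for these 3 genes.

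The 7 NDUFAF genes, whose products help build complex I and are absent from the finished enzyme, had their medians on opposite sides of 0. The median was 0.07 under miR-338-5p, where 0 rose and 0 fell. Under miR-421 it was -0.30, and 4 of 7 fell (57.1%, against 12.6% of all genes) and 0 rose. With median centring the miR-338-5p median was -0.13. Without miR-421 replicate 2, 0 of 7 passed under miR-421, where 2.29% of all probes passed. NDUFAF1 had -0.61 in the pool, -1.09 and -0.55 under miR-421 (adjusted p = 0.0140), and -0.60, -0.68 and -0.34 under miR-338-5p (adjusted p = 0.0505). NDUFAF2 fell by 0.58 and NDUFAF7 fell by 0.30 on the log2 scale under miR-421 (adjusted p = 0.0219 and 0.0361). A second NDUFAF2 probe had -0.35 and did not pass (adjusted p = 0.112).

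NDUFAF4, another of them, had signs that differed by line. The pool read -0.61, and replicates 1 and 2 of miR-421 read -0.50 and -0.72, which average to -0.61 ± 0.11 (adjusted p = 0.00770), or 65.5% of control. On the miR-338-5p arrays it had 0.42, 0.16 and 0.17, which did not pass (mean 0.25, adjusted p = 0.102). The difference of 0.86 (95% interval 0.59 to 1.12, unadjusted for other probes) gave an adjusted p of 0.0738 in limma.

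**Figure D2:**
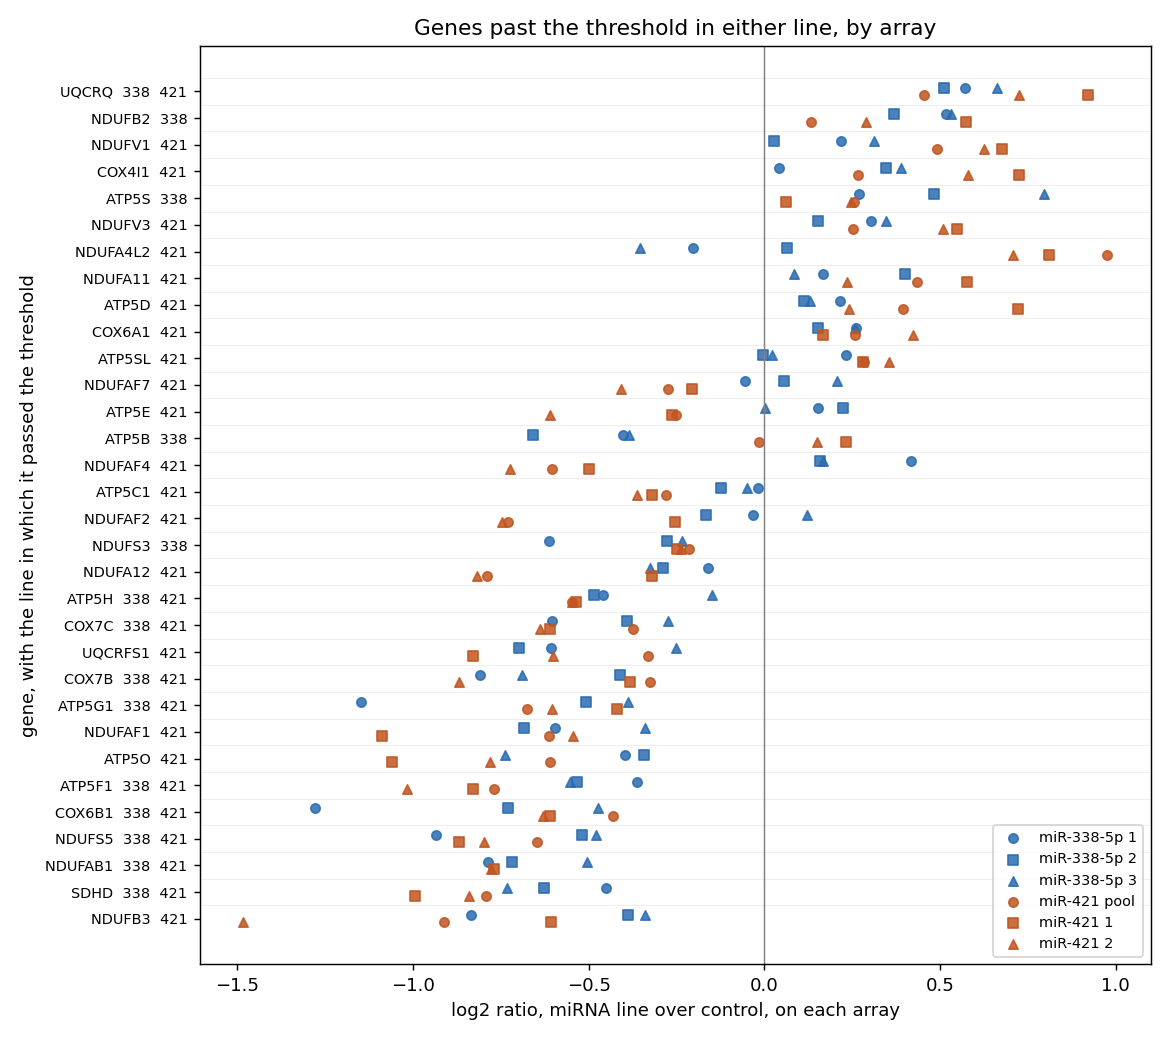
Each row is 1 of the 32 genes past the threshold in either line, named on the y axis with that line, and each point is the log2 ratio over control on 1 array (x axis; blue miR-338-5p, orange miR-421, shapes for replicates). NDUFA4L2 and NDUFAF4 have their blue and orange points apart, and SDHD, ATP5F1 and NDUFS5 have all 6 points below 0.

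Complex II is succinate dehydrogenase, an enzyme of the citric acid cycle as well, with SDHA (flavin) and SDHB (iron-sulphur) as its catalytic pair and SDHC and SDHD as membrane anchors. Taking the brightest probe of each gene, SDHD alone of the 4 passed the threshold, and its 3 probes all fell under each miRNA. They lie next to each other on the plus strand of chromosome 11 (hg19) at chr11:111965707-111965766, chr11:111965758-111965817 and chr11:111965866-111965925, so the first pair overlaps. The first 30 bases of each probe show that these are different stretches of 1 transcript and not copies.
SDHD probe 1: catactttgaagaattgatgtatgcctctt
SDHD probe 2: ttaagctcacaataaggaagaaataacaga
SDHD probe 3: gaggaattatatctaagttgtgagactgag
Probe 3, the brightest, had log2 ratios of -0.45, -0.63 and -0.73 under miR-338-5p, a mean of -0.60 ± 0.14 (adjusted p = 0.0137), and of -0.79, -0.99 and -0.84 under miR-421, a mean of -0.88 ± 0.11 (adjusted p = 0.00327). Expressed against control these are 65.8% and 54.5%. Probe 1 had means of -0.90 and -1.12 (adjusted p = 0.00447 and 0.00189) and probe 2 of -0.72 and, on 2 arrays, -1.06 (adjusted p = 0.0127 and 0.00486). On probe 3 the spot brightness before any correction was 1428, 1366 and 1247 in Cy3 against 839, 698 and 648 in Cy5 on the miR-338-5p arrays. On the miR-421 arrays it was 1116, 1025 and 979 in Cy3, and in Cy5 it was 667 for the pool and 561 for replicate 2, with replicate 1 lowest. SDHD under miR-421 stayed past the threshold in 18 of 18 alternatives.

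SDHA, of which the genome holds near-identical pseudogene copies that a probe may share, had 4 probes with means of -0.69 to -0.30 under miR-338-5p and of 0.12 to 0.37 under miR-421. Of these 8 values 1 passed, that of a probe at chr5:240531-240590 (hg19, plus strand) under miR-338-5p, at -0.69 ± 0.32 with an adjusted p of 0.0497. On that probe the arrays read -0.82, -0.92 and -0.32 for miR-338-5p and 0.02, -0.05 and 0.52 for miR-421, which do not overlap, and the difference of -0.85 did not pass (adjusted p = 0.207). The other SDHA probes differed by -0.91 to -0.44 (adjusted p = 0.223 to 0.356), and the arrays of the brightest overlapped. SDHB was at -0.29 and -0.26 and the brightest SDHC probe at -0.27 and -0.08, none past the threshold, though 1 of the 3 other SDHC probes fell under miR-421 (-0.26, adjusted p = 0.0494). The 4 genes had a median of -0.30 for miR-338-5p and of -0.17 for miR-421.

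**Figure D3:**
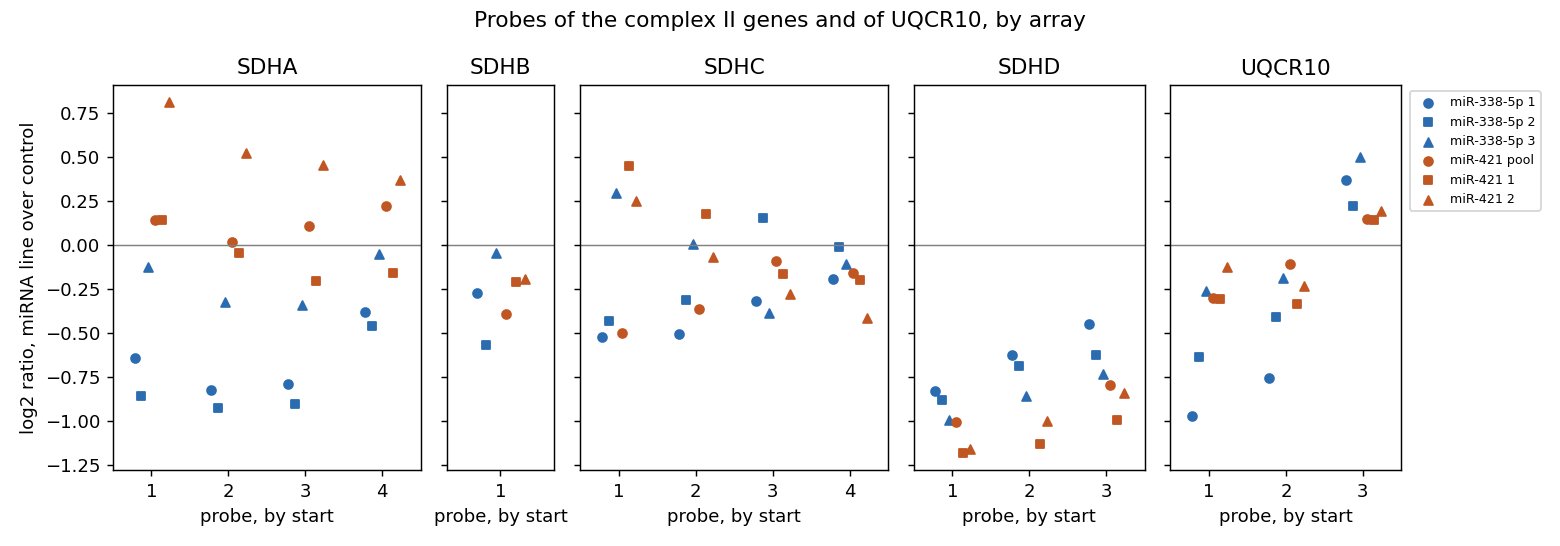
Log2 ratio over control (y axis) on each array for every tested probe of the complex II genes and of UQCR10, with probes in order of their start (x axis), blue for miR-338-5p and orange for miR-421. All 3 SDHD probes lie below 0 on every array with a value, the SDHA points are blue below orange on all probes but the brightest, number 4, where they overlap, and the third UQCR10 probe lies above 0 while the others lie below.

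Complex III passes electrons from ubiquinol to cytochrome c. Of its 8 genes 1 rose under miR-338-5p (12.5%, against 3.96% of all genes). Under miR-421 1 rose and 1 fell (12.5% each, against 10.0% and 12.6% of all genes). UQCRQ, a small subunit, rose under each miRNA. It had 0.57, 0.51 and 0.66 under miR-338-5p (0.58 ± 0.08, adjusted p = 0.0229), and 0.46, 0.92 and 0.72 under miR-421 (0.70 ± 0.23, adjusted p = 0.00846, or 1.62-fold). The arrays of the lines overlapped. UQCRFS1, the Rieske iron-sulphur protein of the catalytic core, fell under miR-421 (-0.33, -0.83 and -0.60, adjusted p = 0.0250) and had -0.61, -0.70 and -0.25 under miR-338-5p (adjusted p = 0.0543). The core proteins UQCRC1 (0.16 and 0.32) and UQCRC2 (-0.36 and -0.20) did not pass in either line.

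UQCR10, another small complex III subunit, had probes that disagreed, more than any other member (a spread of 0.99 between probe means under miR-338-5p). The first 30 bases of each are shown with their place on the plus strand of chromosome 22 (hg19), since they differ in where they lie.
UQCR10 probe 1, chr22:30163478-30163537: ttcttcgagcgcgccttcgatcaaggcgcg
UQCR10 probe 2, chr22:30165827-30165886: ctgttggcaagaaacggctttacttacaaa
UQCR10 probe 3, chr22:30165937-30165996: ctgcttctacattggttgctttgttaactc
Under miR-338-5p probe 1 had -0.97, -0.63 and -0.26 (mean -0.62, adjusted p = 0.0418) and probe 3 had 0.37, 0.22 and 0.50 (mean 0.36, adjusted p = 0.0303). Probe 2, the brightest, had a mean of -0.45 that did not pass (adjusted p = 0.0612). Under miR-421 the 3 means were -0.24, -0.23 and 0.16 and none passed. No exon or transcript annotation was used here, so which transcripts each probe reads was not tested, and no direction is given for the gene.

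Complex IV, cytochrome c oxidase, reduces oxygen; its catalytic subunits are encoded in mitochondrial DNA, and the nuclear genes make the shell around them. Of 16 tested genes 0 rose and 3 fell (18.8%) under miR-338-5p (median -0.12), and 3 rose and 3 fell under miR-421 (18.8% each way, median -0.12). Over all genes, 5.23% were lower under miR-338-5p, and 10.0% were higher and 12.6% lower under miR-421. In the brightest 25% of genes, 6.75% were lower under miR-338-5p. Under miR-421 17.2% of these were higher and 18.0% lower, close to the shares of complex IV. COX6B1, which links the partners of the oxidase dimer, had -1.28, -0.73 and -0.47 under miR-338-5p, the lowest mean of all 90 genes there (-0.83 ± 0.41, adjusted p = 0.0300), and -0.43, -0.61 and -0.63 under miR-421 (-0.56 ± 0.11, adjusted p = 0.0461). COX7B had -0.81, -0.41 and -0.69 and then -0.33, -0.38 and -0.87 (adjusted p = 0.0388 and 0.0371). COX7C, like COX7B a small membrane subunit, had means of -0.42 and -0.54 (adjusted p = 0.0396 and 0.0131). With median centring 0 complex IV genes fell under miR-421 and 5 rose.

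NDUFA4L2 had the largest rise of all 90 genes under miR-421. It is a paralogue of NDUFA4, a complex IV subunit once assigned to complex I, and is known as a gene induced by hypoxia. The pool read 0.98, and replicates 1 and 2 read 0.81 and 0.71, which average to 0.83 ± 0.14 (adjusted p = 0.00627). On the miR-338-5p arrays it was -0.20, 0.06 and -0.35 (mean -0.16, adjusted p = 0.331). The groups did not overlap, and the difference of -0.995 (95% interval -1.32 to -0.67) gave an adjusted p of 0.0776 with limma's plain variance and 0.0287 with a trended and robust one. The probe was dim. Its brightness was 71.8, 60.7 and 63.1 in Cy3 against 42.6, 48.1 and 32.8 in Cy5 on the miR-338-5p arrays, and 61.6, 49.1 and 74.0 against 152, 78.8 and 147 on the miR-421 arrays. The NDUFA4L2 miR-421 value was 1.64 in place of 0.83 when the background step alone was changed to plain subtraction, and 1.67 by the ratio of the image software. The rise passed in 18 of 18 alternatives. NDUFA4 itself did not pass (-0.09 and -0.27).

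Other paired isoforms of complex IV differ by tissue. COX4I1, the common form of subunit IV, rose under miR-421 (0.27, 0.72 and 0.58, adjusted p = 0.0253), and had 0.04, 0.35 and 0.39 under miR-338-5p (adjusted p = 0.197). Its lung form COX4I2 was well above background on only 2 arrays in Cy3 and 1 in Cy5. COX6A1 had 0.26, 0.17 and 0.42 under miR-421 (adjusted p = 0.0327), which turned to -0.0095 with the ratio of the image software. The muscle form COX6A2 was close to background. COX7A2 and COX8A, the forms found in most tissues, did not pass in either line (COX7A2 -0.28 and -0.06, COX8A -0.37 and -0.17). Neither did COX6B2, the testis form (-0.33 and -0.29), COX7A2L (0.33 and 0.47), or COX5A (-0.17 and -0.24) and COX5B (0.01 and 0.25), which sit against the catalytic subunits.

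Complex V had falls past the threshold in both lines in the main setting. Under miR-338-5p 0 of 16 genes rose and 4 fell (25%, median -0.26). Under miR-421 1 rose and 6 fell (37.5%, median -0.29). Over all genes 5.23% and 12.6% were lower in turn, and in the brightest 25% of genes 6.75% and 18.0%. With median centring the miR-421 median was -0.01, with 3 higher and 1 lower, while the miR-338-5p median was -0.28. Under miR-338-5p 0 fell with plain subtraction, the ratio of the image software or the authors' deposited table (medians -0.35 to -0.28). Without its replicates 1, 2 and 3 the falls numbered 0, 0 and 1, while 2.07%, 2.11% and 1.45% of all probes passed. Under miR-421 1 fell without replicate 2, where 2.29% of all probes passed. The members that fell include stalk, rotor and catalytic parts.

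ATP5F1 (now ATP5PB), the b subunit of the peripheral stalk that keeps the catalytic head from turning, fell in both. It had -0.36, -0.53 and -0.55 under miR-338-5p, a mean of -0.48 ± 0.10 (adjusted p = 0.0198), and -0.77, -0.83 and -1.02 under miR-421, a mean of -0.87 ± 0.13 (adjusted p = 0.00318), or 71.6% and 54.7% of control. Its brightness was 6785, 6584 and 5735 in Cy3 against 4525, 4176 and 3716 in Cy5 for miR-338-5p, and 5464, 5397 and 4912 against 3861, 2578 and 2757 for miR-421. The arrays did not overlap, and the difference of 0.39 did not pass (adjusted p = 0.208). Under miR-421 the fall passed in 18 of 18 alternatives, median centring included.

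Further stalk subunits were ATP5O (now ATP5PO) and ATP5H (now ATP5PD). ATP5O had -0.61, -1.06 and -0.78 under miR-421 (-0.82 ± 0.23, adjusted p = 0.00920) and -0.40, -0.34 and -0.74 under miR-338-5p (adjusted p = 0.0508). ATP5H had -0.55, -0.54 and -0.55 under miR-421 (adjusted p = 0.00970) and -0.46, -0.49 and -0.15 under miR-338-5p (adjusted p = 0.0422). Both genes were below 0 on all 6 arrays.

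The membrane rotor is a ring of c subunits made from 3 genes that encode 1 mature protein. Of these ATP5G1 (now ATP5MC1) fell in both comparisons, with -1.15, -0.51 and -0.39 (adjusted p = 0.0462) and -0.67, -0.42 and -0.60 (adjusted p = 0.0451). ATP5G3 had means of -0.43 and -0.41 (adjusted p = 0.103 and 0.0772) and ATP5G2 of -0.16 and 0.01 (adjusted p = 0.195 and 0.920), so neither passed.

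In the catalytic head, ATP5B (now ATP5F1B), the subunit that makes ATP, fell under miR-338-5p with -0.40, -0.66 and -0.39 (-0.48 ± 0.15, adjusted p = 0.0247). Under miR-421 it had -0.02, 0.23 and 0.15 (mean 0.12, adjusted p = 0.319). The arrays did not overlap, and the difference of -0.60 did not pass (adjusted p = 0.133). ATP5A1, its partner in the head, did not pass (-0.52 and -0.17, adjusted p = 0.107 and 0.489). In the central stalk, ATP5C1 fell under miR-421 (-0.32 ± 0.04, adjusted p = 0.0126), ATP5E fell (-0.37 ± 0.20, adjusted p = 0.0350) and ATP5D rose (0.45 ± 0.25, adjusted p = 0.0253). The 3 therefore did not move together.

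The 2 other names that the prefix brings in are ATP5S, which rose under miR-338-5p (0.27, 0.48 and 0.80, adjusted p = 0.0396), and ATP5SL, which rose under miR-421 (0.28, 0.28 and 0.36, adjusted p = 0.0250).

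**Figure D4:**
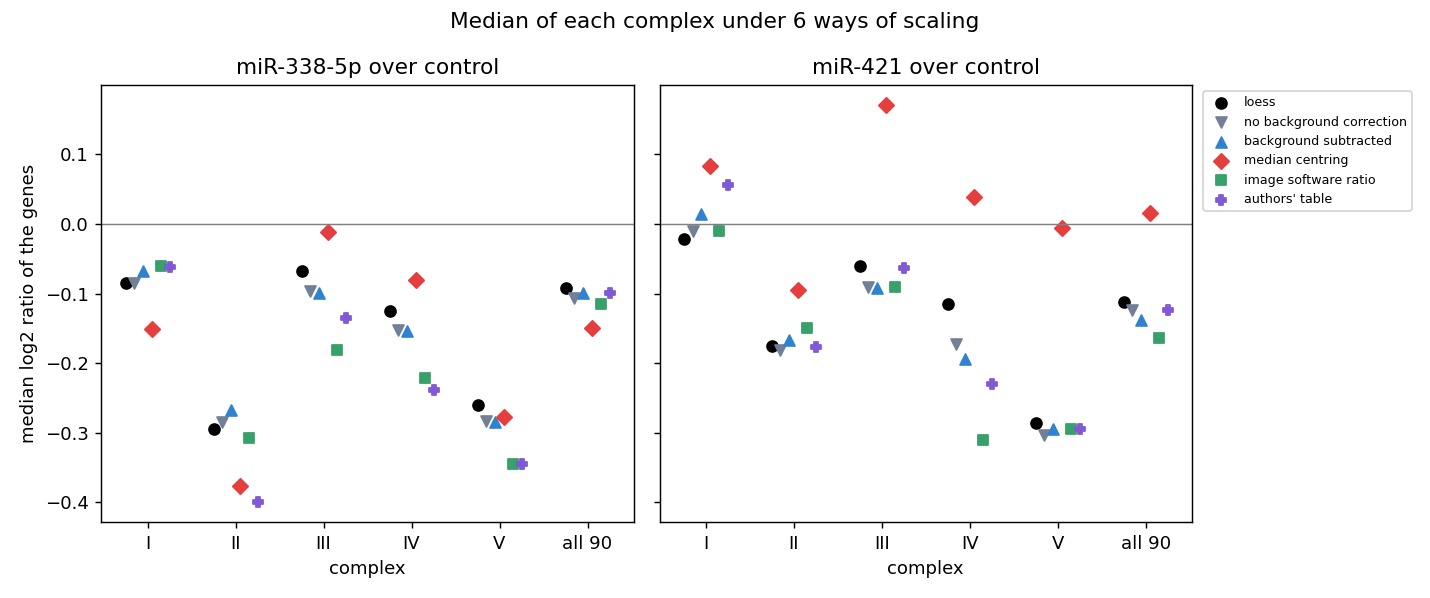
Median log2 ratio over control (y axis) of the genes of each complex and of all 90 genes (x axis) under 6 ways of correcting and scaling the arrays, one symbol each, for miR-338-5p (left) and miR-421 (right). Under miR-421 median centring (red) puts the median of complex V at -0.01 in place of -0.29 with loess (black) and turns that of complex III from -0.06 to 0.17.

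Chromosome mattered on 1 array, a pattern noticed after the values were seen. On miR-338-5p replicate 2 the members on chromosome 3 and on chromosome 8 all read high. Those on chromosome 3 were NDUFB4 (0.66), NDUFB5 (0.47), NDUFAF3 (0.45) and UQCRC1 (0.38), with a median of 0.46. Those on chromosome 8 were COX6C (0.98), NDUFB9 (0.79), NDUFAF6 (1.06) and UQCRB (1.06), all above every member on chromosome 3.

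On replicates 1 and 3 of miR-338-5p the same members had medians of -0.08 and -0.24 for chromosome 3 and of 0.19 and 0.08 for chromosome 8. Over all genes above background in both dyes, chromosome 3 had a median of 0.12 and chromosome 8 of 0.09 on replicate 2, the highest of 23 chromosomes. The third was chromosome 21 at 0.03 and the lowest stood at -0.08. On the other 5 arrays the medians of both chromosomes lay between -0.06 and 0.00. Replicate 2 gave the highest of the 3 miR-338-5p values for 55.1% of genes on chromosome 3 and 51.3% on chromosome 8, against 30.7% of genes elsewhere, and for 4 of 4, 4 of 4 and 14 of 80 members in turn. The SDs of these 8 genes under miR-338-5p ran from 0.20 for UQCRC1 to 0.64 for UQCRB, and none passed the threshold there. The widest SD of the tested genes was that of NDUFA5 on chromosome 7 (0.67), which also read high on replicate 2 (0.92). What sets that sample apart was not tested.

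**Figure D5:**
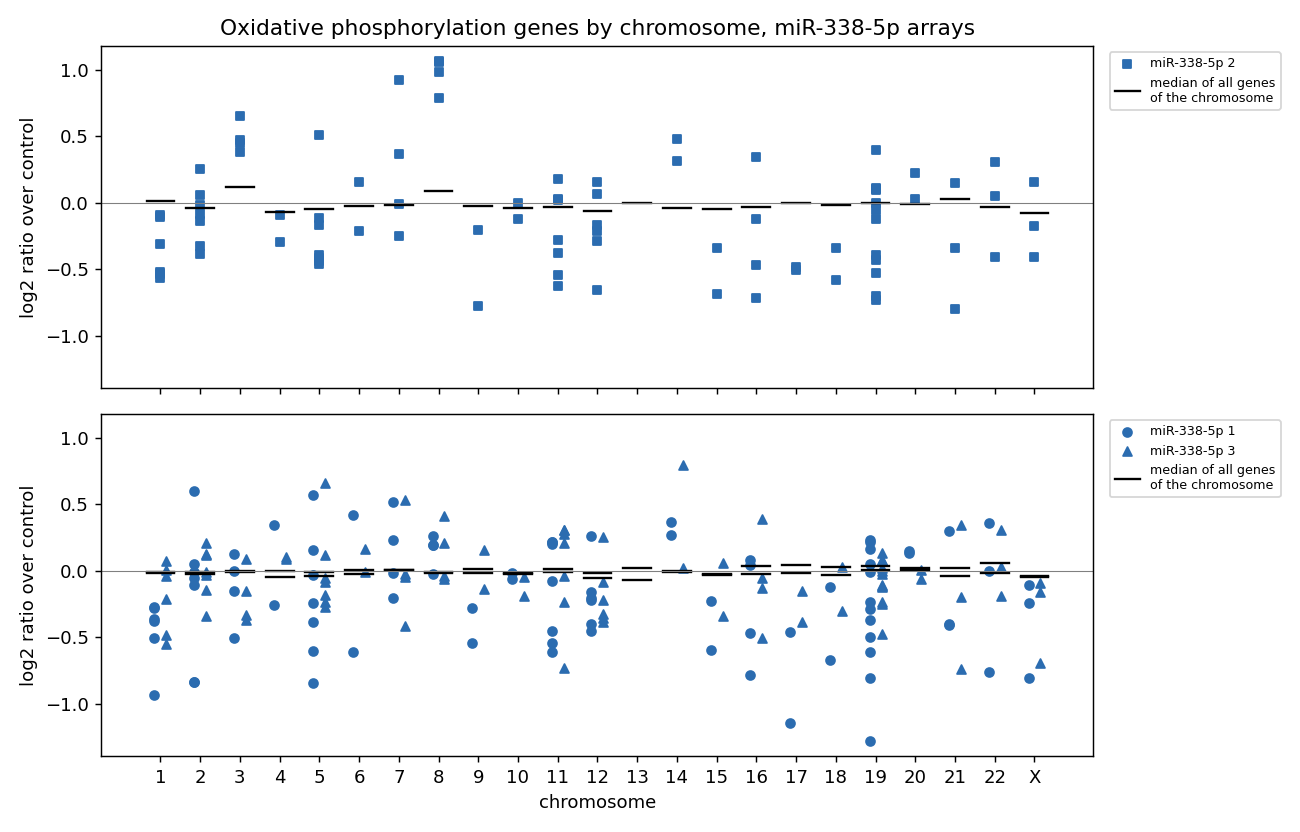
Log2 ratio over control (y axis) of each oxidative phosphorylation gene above background in both dyes on all 6 arrays, by chromosome (x axis), on miR-338-5p replicate 2 (top) and on replicates 1 and 3 (bottom); black bars are medians of all genes of the chromosome. On replicate 2 all points of chromosomes 3 and 8 lie between 0.38 and 1.06.

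Other genes that the organelle needs for this pathway were counted from lists chosen with earlier results of these data known. Over all genes tested, 5.23% were lower and 3.96% higher under miR-338-5p, and 12.6% lower and 10.0% higher under miR-421. In the brightest 25% of genes these shares were 6.75% and 6.06%, and 18.0% and 17.2%. The brightness of the listed genes was not compared with that of all genes. Mitochondrially encoded subunits numbered 11 on the array, and 2 (18.2%) fell in each line. Under miR-338-5p these were ATP6 and ND4L, and 0 rose (median -0.21). Under miR-421 ATP6 and ATP8 fell and 1, ND3, rose (median -0.08). A list of 18 genes outside the name rule held the chain members CYC1 and the carrier cytochrome c (CYCS). It also held ubiquinone synthesis genes (COQ and PDSS names), ETHE1, C14orf2 and other genes, and not all of these are chain members. Under miR-338-5p it gave 1 higher, ETHE1 (0.53, limma adjusted p = 0.0435), and 3 lower (16.7%). The 3 were CYCS, COQ3 and C14orf2 (C14orf2 -0.65, adjusted p = 0.0439). Under miR-421 CYC1, COQ6 and ETHE1 rose and CYCS, COQ3 and PDSS1 fell (16.7% each way). CYCS fell by 0.50 and 0.93 on the log2 scale (adjusted p = 0.0205 and 0.00316). Assembly factors of the chain gave 1 higher and 5 lower (13.2%) of 38 and then 3 and 10 (26.3%). COX16, which helps assemble complex IV, had means of -0.69 and -1.31 (adjusted p = 0.0258 and 0.00379).

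Regulators of mitochondrial biogenesis gave 0 higher and 2 lower (11.8%) of 17 under miR-338-5p. Under miR-421 they gave 1 higher and 7 lower (41.2%, median -0.57), and 2 lower without miR-421 replicate 2. TFAM, which packages and transcribes mitochondrial DNA, had -0.44 and -0.80 (adjusted p = 0.0422 and 0.00643), and POLG2, the accessory subunit of its polymerase, had -0.53 and -0.99 (adjusted p = 0.0656 and 0.00888). The 1 that rose under miR-421 was NRF1, with 0.08 and 0.21 (adjusted p = 0.432 and 0.0494). Mitochondrial ribosomal protein genes gave 1 higher and 6 lower (7.79%) of 77 under miR-338-5p (median -0.01). Under miR-421 they gave 2 higher and 27 lower (35.1%), with a median of -0.26, between -0.30 and -0.14 over 5 other scalings. Without miR-421 replicate 2, 6 of the 77 were lower, and 2.29% of all probes passed in either direction. A list of 19 genes held citric acid cycle genes. It also held PC and the pyruvate dehydrogenase genes PDHA1, PDHB, PDHX and DLAT, which are not enzymes of the cycle. Under miR-338-5p the list gave 0 higher and 2 lower, IDH3A and SUCLG1. Under miR-421 it gave 4 higher and 2 lower. Those that rose were IDH2 (1.22, adjusted p = 0.00895), PC (0.86, adjusted p = 0.00450), IDH3G and DLST. Those that fell were IDH3A and DLAT (adjusted p = 0.0316 and 0.0299).

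Promoters were compared by letters alone. Of the 93 genes 76 had a RefSeq promoter window (GRCh38.p14, 250 bases before to 50 after the start). The binding motif of NRF1, spelled GCGC, any base, then TGCGC, stood on either strand in 17 of 76 (22.4%), against 6.28% of all 27305 windows. An ETS motif, CCGGAAG, stood in 20 (26.3%, against 10.7%), and a YY1 motif, AAGATGGC, in 11 (14.5%, against 3.03%). The motifs were searched one by one, so overlaps were allowed. Of the 19 matched genes that fell in either line 5 held the NRF1 motif, 5 the ETS motif and 2 that of YY1, and of the 46 tested genes that did neither 10, 12 and 9 held them. Of the 9 that rose 1, 3 and 0 held them, and of 2 that were not tested 1, 0 and 0. The 120 bases before the start are shown for SDHD and COX6B1, which fell, and UQCRQ, which rose, with motif matches in capitals on the plus strand.
SDHD, chr11:112086753-112086872: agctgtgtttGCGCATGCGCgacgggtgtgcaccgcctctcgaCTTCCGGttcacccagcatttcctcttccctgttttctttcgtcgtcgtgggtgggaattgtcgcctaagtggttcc
COX6B1, chr19:35648203-35648322: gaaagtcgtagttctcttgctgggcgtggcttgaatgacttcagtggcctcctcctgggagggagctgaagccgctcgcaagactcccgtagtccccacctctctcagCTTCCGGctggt
UQCRQ, chr5:132866522-132866641: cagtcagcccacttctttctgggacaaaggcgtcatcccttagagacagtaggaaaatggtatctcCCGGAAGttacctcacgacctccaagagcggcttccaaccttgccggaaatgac
SDHD holds an NRF1 match and COX6B1 and SDHD an ETS match in reverse complement, and UQCRQ holds an ETS match as spelled above. A match is a run of letters, and no binding was measured.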

How the data were processed

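Per the file headers, the authors scanned the arrays and read them with Feature Extraction 11.5.1.1. The deposited intensity values are mean spot brightness and median local background in each dye, not normalized, and the deposited log10 ratio of the same software and the authors' deposited log2 ratio table (its normalization is not given in the sources used here) served as alternatives. Per the labels' protocols, total RNA was given a poly(A) tail before labelling. From the intensities, normexp (offset 50) removed background, ratios were normalized by loess within arrays, outlier spots were left out and spots of a probe were averaged, in R 4.3.3. All 6 arrays entered 1 limma (3.58.1) fit with a mean per line, tested two-sided against 0 and against each other, with Benjamini-Hochberg adjustment at 0.05 over the probes with a test (27507, 27497 and 27495 for miR-338-5p, miR-421 and the difference). The fit was tested on simulated data.

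A gene was represented by its brightest tested probe. Genes were named by rule: up to 8 largest rises and falls per comparison, complex II, paired isoforms, core subunits, disagreeing probes and opposite signs. The members, lists and rules were chosen with earlier results of these data known. Probe coordinates are on hg19, per the file headers. Gene names were updated through RefSeq (all 93 matched, 20 renamed). The number of arrays limits the precision. Results of 1 member gene named by the rule are not reported here.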

Additional observations from a re-analysis of the deposited data

Results flagged for a closer look

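In 4 genes all 3 arrays of one line lay on the other side of 0 from all 3 of the other, with means over 0.3 apart. That is 4.49% of the 89 members with a value on every array, against 2.46% of 21596 genes. The differences (miR-338-5p minus miR-421, log2 scale) were tested in limma over all probes and none passed. NDUFAF4, an assembly factor of complex I, differed by 0.86 (adjusted p = 0.0738, 0.77 to 0.93 over 17 alternatives), NDUFAF6, another, by 0.67 (adjusted p = 0.283, range 0.42 to 0.85), ATP5E, a central stalk subunit of complex V, by 0.50 (adjusted p = 0.206, range 0.23 to 0.56), and ATP5J2, a membrane subunit of complex V, by -0.35 (adjusted p = 0.328, range -0.59 to -0.26). The lowest NDUFAF6 difference, 0.42, was without miR-338-5p replicate 2, and the lowest ATP5E difference, 0.23, and largest ATP5J2 difference were with median centring. A second, dim probe of NDUFAF6 was higher under miR-338-5p with an adjusted p of 0.0219 in limma. Under miR-421 that probe read 0.16, -0.14 and 0.10 (mean 0.04), so it did not repeat the opposite signs. NDUFAF6 lies on chromosome 8, whose members read high on miR-338-5p replicate 2. For ATP5E a second, dim probe read -0.06 in both lines.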

How the results depend on the processing

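For miR-338-5p, 22 member probes passed in the main setting, 10 with median centring, 4 when background was plainly subtracted, 2 by the ratio of the image software, 1 in the authors' deposited table (of 90 genes), 10 with no filter and 1 with the line's own arrays alone. Leaving out each array gave 1 to 29. For miR-421, 32 became 17 when background was subtracted, 16 by the ratio of the image software and 13 in the authors' deposited table, shares below those of all features there (14.2% against 20.5%, 13.3% against 19.4% and 14.4% against 19.7%), and 5 to 32 without each array. For the difference, 0 became 1 with a trended, robust variance (NDUFA4L2). Under miR-338-5p the median of -0.09 was -0.15 with median centring (where the median of all genes was -0.08) and under miR-421 that of -0.11 was -0.138 when background was subtracted, 0.015 with median centring, -0.16 by the ratio of the image software, and -0.127 to -0.0786 without each array. The cause was not tested in any case. Leaving out an array also leaves fewer samples, and the counts then went down or up. Of all probes, 1.45% to 13.3% passed under miR-338-5p without each array, against 8.95% in the main setting. Under miR-421 it was 2.29% to 20.0%, against 21.6%. The COX6A1 miR-421 value of 0.28 read -0.009476 by the ratio of the image software and -0.009234 in the authors' deposited table. Of 36 calls of named genes, 3 passed in every alternative run (SDHD, ATP5F1 and NDUFA4L2 under miR-421) and 33 were lost in at least 1. Numbers 1 and 2 are shared by both lines, and deviations of same-numbered samples correlated at -0.14 and -0.21. These pairs are too few to show whether same-numbered samples share more than a number. With the replicate block 26, 32 and 0 probes passed. No dye swap was made, so a dye bias of a probe enters each ratio over control and cancels in the difference.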
